A study of Rattus norvegicus with 82 samples.

Results

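The amygdala of adrenalectomised rats was compared with that of sham-operated rats on 8 of the 82 arrays of a rat brain expression series, 4 labelled ADX and 4 labelled Sham. The arrays were chosen by their labels alone, which name the amygdala as the source and give the treatment and the time of day in the title. The groups were ADX at AM, ADX at PM, pADX at AM, pADX at PM, Sham at AM and Sham at PM, with 2 arrays each, so that 12 amygdala arrays entered the fit. The 4 pADX arrays do not enter the difference between ADX and Sham, but they add to the estimate of the spread behind its p-value. ADX commonly abbreviates adrenalectomy, surgery that takes out both adrenals, and Sham the same surgery with the adrenals left in place. The sources used here do not give what the p in pADX stands for, nor the strain, sex and age of the rats, the time since surgery, any hormone replacement, or whether an array holds 1 animal or a pool. The p-values therefore measure the spread between these arrays, which may be technical.

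The adrenal cortex secretes corticosterone, the main glucocorticoid of the rat, in a daily rhythm that peaks before the active phase, and releases more of it under stress. Corticosterone enters brain cells and binds the mineralocorticoid receptor and the glucocorticoid receptor, which then act as transcription factors at their target genes. The amygdala carries both receptors, contains neurons that make corticotropin-releasing hormone, and is known for its part in fear and in the response to stress. Removing the adrenals takes away corticosterone, aldosterone and adrenal adrenaline together.

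Each array gave a signal for 31042 probe sets after control probe sets were left out. Signals are given on a log2 scale after quantile normalization, on which the floor of 16 signal units stands at 4, and a difference of 1 is a doubling of signal. Values of single arrays are listed with the AM pair before the PM pair. As deposited, the trimmed mean signal lay between 150.041 and 150.045 on all 12 arrays. After normalization, each array correlated with the mean of the other amygdala arrays at 0.9867 to 0.9915 across probe sets on the log2 scale. In the tissue check, 2 of 8 excitatory and basolateral amygdala markers (Lmo3 and Etv1), 1 of 10 central and inhibitory markers (Sst) and 1 of 6 medial markers (Cyp19a1) had their highest mean of 7 regions in the amygdala, and the rest did not. Regions were read from the code in each title, which for several regions is not the source named there, as given below. Esr1 stood at the floor on all 12 arrays. Of the markers of other cells and regions, Csf1r and Aif1 of microglia, Syp of neurons and Dsp of hippocampus were also highest in the amygdala. Markers of neighbouring tissue varied from array to array. The summed signal of 6 measured choroid plexus markers was 4260 to 8247 in ADX, 1415 to 6944 in pADX and 405.1 to 7537 in Sham, where the lowest value belonged to Sham PM replicate 2. Being a sum of linear signal, it is weighted toward its brightest marker, Ttr. The summed signal of 8 measured hypothalamus markers was 408.3 to 1383 in ADX, 257.5 to 676.2 in pADX and 199.5 to 2132 in Sham.

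The secreted serine protease Htra1, the phenol sulfotransferase Sult1a1 and Paqr8, a membrane receptor for progestins, fell in ADX amygdala. Htra1 was 2.52-fold lower, Sult1a1 4.52-fold lower and Paqr8 1.64-fold lower than in Sham. A 4th probe set, for the transcription factor Ebf1, passed as higher in ADX, but its pADX and Sham values are all at the floor, so its difference of 0.30 and its p rest on where the floor is set, and it did not pass with a floor of 32. These 4 were all that passed at a Benjamini-Hochberg adjusted p under 0.05 in limma, 0.0129% of the probe sets tested, with 0.00322% rising and 0.00966% falling. At an unadjusted p under 0.05 there were 1694 probe sets (5.46%), 880 higher and 814 lower in ADX.

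Both promoter sequences below are those of the falling genes that RefSeq promoter records matched, 2 of 3, and are shown because Sult1a1 and Htra1 fell most among the 3. Each is the 250 bases before the gene's start in the GRCr8 build, written 5′ to 3′ on the gene's strand, with the motif AGAACA in capitals where it or its reverse complement occurs. The Sult1a1 window is chr1:190706113-190706362 on the minus strand and the Htra1 window is chr1:194927819-194928068 on the plus strand.
Sult1a1: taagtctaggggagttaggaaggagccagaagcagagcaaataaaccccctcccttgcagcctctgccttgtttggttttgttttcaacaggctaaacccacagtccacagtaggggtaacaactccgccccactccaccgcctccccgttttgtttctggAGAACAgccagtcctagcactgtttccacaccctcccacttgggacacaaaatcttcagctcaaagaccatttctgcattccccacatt
Htra1: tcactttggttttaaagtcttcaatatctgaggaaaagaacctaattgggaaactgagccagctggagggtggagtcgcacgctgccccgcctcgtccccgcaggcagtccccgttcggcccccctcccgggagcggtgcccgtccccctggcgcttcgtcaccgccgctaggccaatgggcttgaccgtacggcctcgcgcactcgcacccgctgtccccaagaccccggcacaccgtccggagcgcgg
AGAACA is an arm of the element bound by glucocorticoid and mineralocorticoid receptors, whose full form is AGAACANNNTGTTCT with N for any base. The Sult1a1 window held AGAACA once and the Htra1 window did not hold it on either strand, and neither held the full form. On either strand AGAACA occurred in 17.5% of 33469 windows of the same length and the full form in 0.012%, so a single match is common.

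Htra1 (probe set 1386884_at) stood at 7.20, 7.32, 7.48 and 7.14 on the ADX arrays, at 8.53, 8.45, 8.48 and 8.36 on the pADX arrays, and at 8.72, 8.64, 8.56 and 8.56 on the Sham arrays. All 4 ADX arrays lay more than a log2 unit below the lowest Sham array, and the pADX arrays lay next to the Sham arrays. The group means were 7.28 ± 0.15 in ADX, 8.45 ± 0.07 in pADX and 8.62 ± 0.08 in Sham (SD, n = 4 each), and ADX minus Sham was -1.33 (SE 0.07, 95% interval -1.50 to -1.17, limma adjusted p = 0.00095). In these tissue samples, fewer cells that make a transcript and less of it per cell cannot be told apart.

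Sult1a1 (1370019_at), which transfers sulfate to phenols and catecholamines, stood at 5.05, 4.24, 5.63 and 5.35 on the ADX arrays, at 6.82, 6.80, 7.0 and 7.05 on the pADX arrays, and at 6.99, 7.26, 7.46 and 7.27 on the Sham arrays. The ADX arrays spread over more than a log2 unit and remained far below the others, while pADX and Sham overlapped. ADX minus Sham was -2.18 (SE 0.20, 95% interval -2.63 to -1.72, limma adjusted p = 0.0222).

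Paqr8 (1388600_at) stood at 8.27, 8.28, 8.37 and 8.28 on the ADX arrays, at 9.02, 8.80, 8.74 and 8.97 on the pADX arrays, and at 9.06, 8.92, 9.13 and 8.93 on the Sham arrays. The groups ADX and Sham did not overlap, and ADX minus Sham was -0.71 (SE 0.07, limma adjusted p = 0.0402). The other 3 probe sets of Paqr8 differed by -0.37, -0.53 and -0.42 and did not pass. Ebf1, named here after its value was seen, read 4.34, 4.20, 4.31 and 4.33 on the ADX arrays and was at the floor on the 4 pADX and the 4 Sham arrays (limma adjusted p = 0.0208). Just outside the threshold stood Cables1 and Shank2, both at an adjusted p of 0.102.

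**Figure D1:**
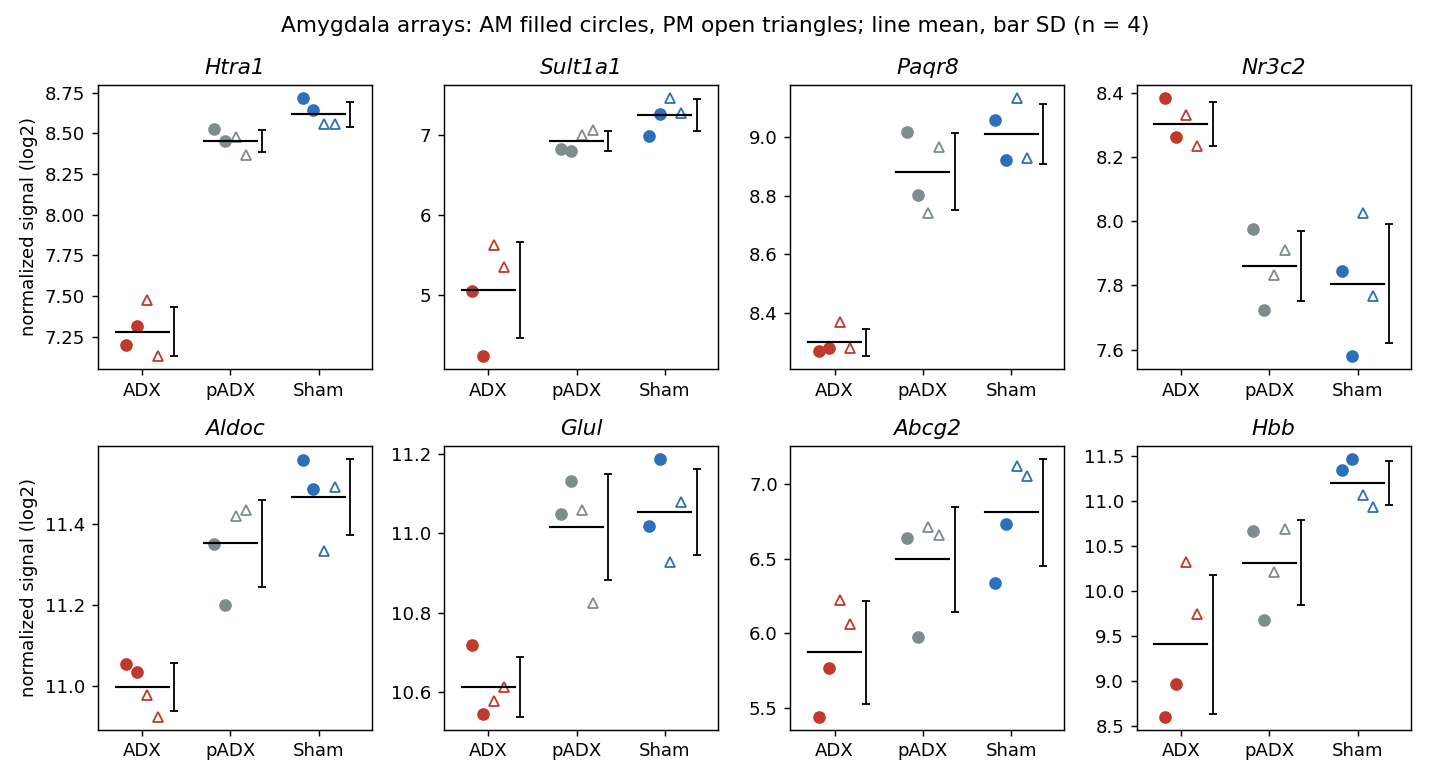
Normalized log2 signal of 8 genes on the 12 amygdala arrays, by ADX, pADX and Sham; circles are AM arrays, triangles PM arrays, lines the means and bars the SD of 4 arrays. In Htra1, Sult1a1 and Paqr8 all ADX arrays lie below all others, and in Hbb the pADX arrays lie between ADX and Sham in mean.

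The number that passed moved with the arrays in the fit. It was 16 without Sham PM replicate 1, 2 without pADX AM replicate 2, and 1, which was Htra1, without any single one of the following arrays: replicate 1 or 2 of ADX at PM, replicate 1 of pADX at AM, replicate 2 of pADX at PM, and replicate 2 of Sham at either time. With the 8 ADX and Sham arrays alone it was 0 in limma, with 2165 probe sets at an unadjusted p under 0.05 and Htra1 at an adjusted p of 0.0523. With a filter that kept 14073 probe sets above 64 signal units on at least 4 of 12 arrays, 14 passed (0.0995%), of which 13 fell (0.0924%) and 1 rose.

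Those 14 included the 3 falling genes above, 6 hemoglobin probe sets, Aldoc, Abcg2, Glul and 2 probe sets without a gene symbol. Aldoc, the aldolase of astrocytes, stood at 11.05, 11.03, 10.98 and 10.92 in ADX, at 11.35, 11.20, 11.42 and 11.44 in pADX, and at 11.56, 11.49, 11.33 and 11.49 in Sham. Its difference of -0.47 (SE 0.07) had a limma adjusted p of 0.214 over all probe sets and 0.0144 with the filter. Glul, glutamine synthetase, which makes glutamine from glutamate in astrocytes, stood at 10.72, 10.54, 10.58 and 10.61 in ADX, at 11.05, 11.13, 11.06 and 10.82 in pADX, and at 11.02, 11.19, 10.93 and 11.08 in Sham. For both genes no ADX array reached the lowest Sham array. Glul differed by -0.44 (SE 0.07), with a limma adjusted p of 0.334 over all probe sets and 0.0396 with the filter, and its other 2 probe sets by -0.71 and -0.56. Abcg2, an efflux transporter of the blood-brain barrier that is also made by red cell precursors, stood at 5.44, 5.77, 6.22 and 6.06 in ADX, at 6.64, 5.97, 6.71 and 6.66 in pADX, and at 6.34, 6.73, 7.13 and 7.06 in Sham. The lowest Sham value lay just above the highest ADX value, and the difference of -0.94 (SE 0.15) had a limma adjusted p of 0.334 over all probe sets and 0.0396 with the filter.

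Further genes were lower on all 4 ADX arrays than on all 4 Sham arrays and did not pass in limma. These were picked by the smallest p among genes without overlap, so that their separation is how they were chosen; of 10749 detected probe sets with 1 symbol, 4.49% showed no overlap in either direction. Cables1, an adaptor between kinases, differed by -0.50 (adjusted p 0.102), Cpne7, a calcium-dependent membrane-binding protein, by -0.62 (0.336), Phyhd1, a dioxygenase, by -0.62 (0.334), Sirpa, the receptor for CD47, by -0.31 (0.422) and Khdrbs3, an RNA-binding protein, by -0.17 (0.387). Cxcl12, a chemokine made by endothelium and meninges, stood at 7.11, 6.95, 6.85 and 6.80 in ADX, at 6.86, 6.77, 6.60 and 6.92 in pADX and at 7.43, 7.37, 7.35 and 7.36 in Sham. The difference in ADX was -0.45 (adjusted p 0.334), and the pADX arrays overlapped with the ADX arrays and not with the Sham arrays. The other 2 probe sets of Cxcl12 differed by -0.10 and -0.17.

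No detected gene rose past the threshold. The 12 genes with the smallest p among those higher on all ADX arrays differed by 0.20 to 0.59, with limma adjusted p-values of 0.336 to 0.57. Nr3c2, the mineralocorticoid receptor, stood at 8.39, 8.26, 8.33 and 8.23 in ADX, at 7.98, 7.72, 7.83 and 7.91 in pADX, and at 7.85, 7.58, 8.03 and 7.77 in Sham. Every ADX array lay above every pADX and Sham array, with a difference from Sham of 0.50 (SE 0.09, 95% interval 0.29 to 0.71, limma adjusted p = 0.4). Slco1a4, an organic anion transporter of brain endothelium, was 0.37 higher (adjusted p 0.398), with its other probe set 0.32 higher. Among the rest were Evi2a at 0.59, the scaffold protein Iqgap1 at 0.53, Bbs7, a subunit of the complex that sorts cargo to cilia, at 0.48, Lrrc28 at 0.45, the centrosomal protein Cep70 at 0.39, Ammecr1l at 0.34, Reep3, which shapes the endoplasmic reticulum, at 0.34, the glutaredoxin Glrx3 at 0.28, Erbin at 0.26 and the RNA polymerase subunit Polr2d at 0.20. The second probe set of Lrrc28 differed by -0.01.

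Genes known to be induced by glucocorticoids were next set beside all probe sets. Of 40 genes listed, 39 were measured and 36 were above the floor on some array. Sult1a1 alone fell past the threshold and none rose. ADX was lower with an unadjusted p under 0.05 for 11 genes and higher for none, against 2.62% lower and 2.83% higher of all probe sets. Of 10749 detected probe sets with 1 symbol, 401 were lower and 428 higher at that p. On 7 genes (17.9%) every ADX array lay below every Sham array, against 1.29% of all probe sets below and 1.52% above. Of detected probe sets with 1 symbol, 2.12% lay below and 2.37% above. The median difference of the list was -0.18, beside 0.00 for all probe sets, with 31 genes negative and 5 positive. Sult1a1, Gpd1 and several others were put on the list with earlier results of these data known.

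Gpd1, the cytosolic glycerol-3-phosphate dehydrogenase, stood at 6.93, 6.76, 6.90 and 6.56 in ADX, at 7.36, 7.42, 7.49 and 7.52 in pADX, and at 7.41, 7.08, 8.30 and 8.02 in Sham. ADX and Sham did not overlap, the pADX values lay inside the Sham range, and the difference between ADX and Sham of -0.92 (SE 0.21) had a limma adjusted p of 0.609. Fkbp5, a co-chaperone that lowers the affinity of the glucocorticoid receptor for its ligand, stood at 6.72, 6.64, 6.65 and 6.03 in ADX, at 6.65, 6.86, 7.22 and 6.92 in pADX, and at 6.80, 7.14, 7.55 and 7.21 in Sham. The highest ADX array lay just below the lowest Sham array, and the difference of -0.67 (SE 0.20, adjusted p 0.759) was -0.77 on its second probe set. Besides these and Sult1a1 and Glul, given above, the genes without overlap between ADX and Sham were Mt2A, a metal-binding metallothionein, at -0.54 (adjusted p 0.819), Dusp1, a phosphatase of MAP kinases, at -0.38 (0.874), and Ndrg2, an astrocyte gene, at -0.32 (0.759).

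The clock gene Per1 stood at 6.09, 5.17, 5.31 and 4.86 in ADX, at 5.60, 6.13, 6.23 and 6.33 in pADX, and at 6.53, 6.0, 6.30 and 6.37 in Sham, and 1 ADX array overlapped with Sham. Its difference was -0.95 (SE 0.27, limma adjusted p = 0.746). Sgk1, a kinase that regulates ion channels, differed by -0.56 (0.902), Pdk4, which restrains pyruvate dehydrogenase, by -0.53 (0.936) and Angptl4, an inhibitor of lipoprotein lipase, by -0.34 (0.922). Some genes well known as glucocorticoid targets stood near the median of the list. The mTOR inhibitor Ddit4 stood at -0.21, the transcription factor Klf9 at -0.18 and Tsc22d3, which codes for the leucine zipper protein GILZ, at -0.17, each with a 95% interval that included 0 and with AM and PM values of opposite sign, given below. A second probe set of Klf9 differed by -0.78 and the remaining one by -0.06, neither passing. Without Sham PM replicate 1 the differences were smaller, at -0.28 for Sgk1, -0.06 for Klf9 and -0.04 for Tsc22d3. Mt1 was at the floor on 3 ADX arrays and read at most 4.24 on any array.

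**Figure D2:**
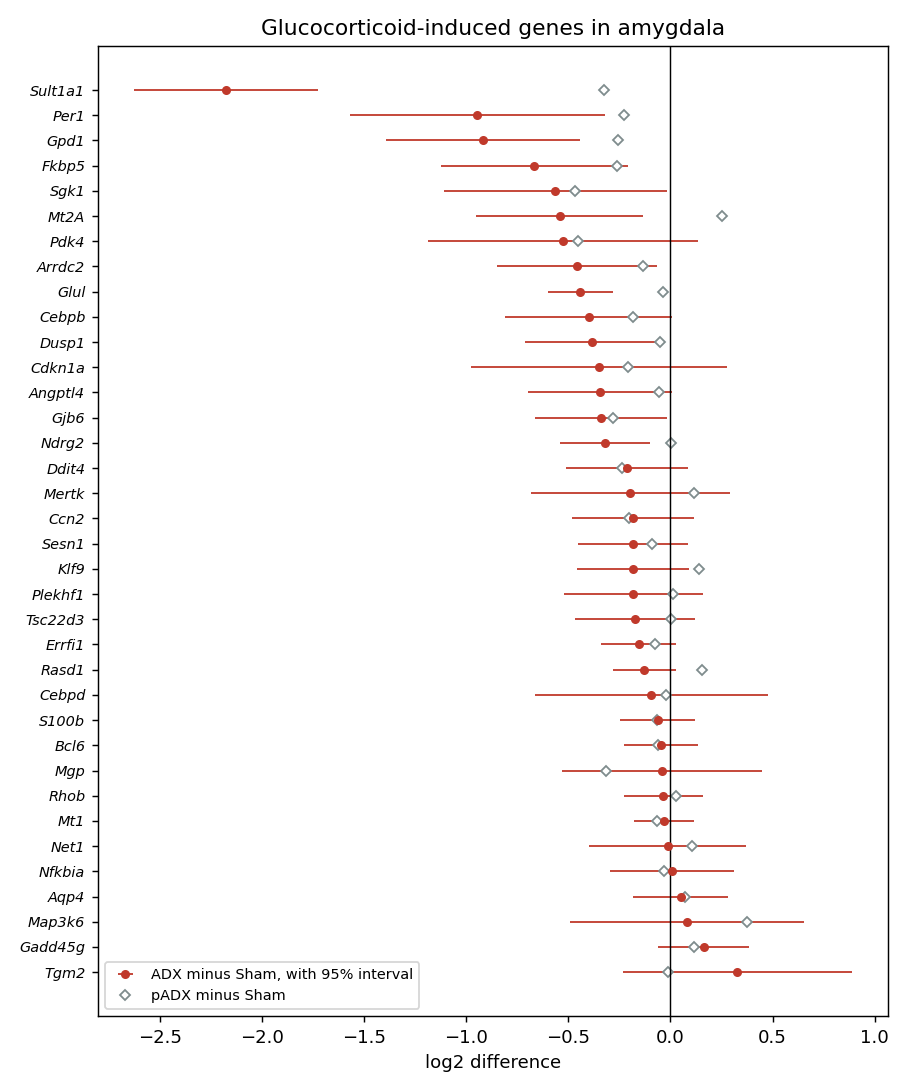
Log2 difference from Sham of the 36 glucocorticoid-induced genes above the floor on some array; filled circles are ADX with the 95% interval from limma, open diamonds are pADX. Sult1a1 stands apart at -2.18 in ADX, 31 genes lie left of 0 in ADX, and the pADX median of the list is -0.05.

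Signals of marker lists for other cells are given beside these differences. The summed signal of 3 measured blood markers of 5 listed was 446.7 to 1339 in ADX, 869.2 to 1732 in pADX and 2030 to 2953 in Sham, so that ADX and Sham did not overlap. Being a sum of linear signal, it is weighted toward the brightest of the 3, which is Hbb, given next. Hbb, the beta chain of hemoglobin, stood at 8.61, 8.97, 10.33 and 9.75 in ADX, at 10.67, 9.69, 10.22 and 10.69 in pADX, and at 11.35, 11.48, 11.07 and 10.94 in Sham. Its difference of -1.80 (SE 0.36) had a limma adjusted p of 0.538 over all probe sets and 0.0396 with the filter. The 6 hemoglobin probe sets that passed with the filter differed by -1.74 to -2.28. They are annotated to Hba-a1 and Hba-a2, to Hbbl1 and Hbb-bs, or to Hbb, so that several read the same genes. A probe set for Hba-a3 differed by -0.98, with overlap between ADX and Sham (limma adjusted p 0.87 over all probe sets). Alas2, the heme synthesis enzyme of red cell precursors, differed by -1.70 (adjusted p 0.387), a lower bound on the size because 2 ADX arrays were at the floor. Slc4a1, the anion exchanger of red cells, differed by 0.45. The summed signal of 9 neuron markers was 15550 to 15960 in ADX, 15590 to 16360 in pADX and 16100 to 16690 in Sham, with medians of 15900, 16090 and 16330. These sums did not overlap between ADX and Sham. No single marker was without overlap or had an unadjusted limma p under 0.05. None of the 9 passed, with 6 negative and 3 positive differences and a median of -0.08. The summed signal of 10 astrocyte markers was 15160 to 16410 in ADX, 15520 to 16830 in pADX and 16350 to 17210 in Sham. Their median difference was -0.12 and none passed. The part of these markers in the differences above was not tested. Prl, Tshb and Pomc of the pituitary list were at the floor on all 12 arrays.

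The other gene lists gave no call in either direction over all probe sets in limma. Of 18 astrocyte genes of glutamate, glycogen and fuel metabolism (20 listed), 14 were negative and 4 positive, with a median of -0.21. Besides Gpd1 and Glul this list held Prodh, proline dehydrogenase, which stood at 6.45, 6.61, 7.07 and 6.88 in ADX, at 7.39, 7.15, 6.85 and 7.65 in pADX and at 7.45, 7.36, 7.45 and 7.60 in Sham. Every ADX array of Prodh lay below every Sham array, with a difference of -0.71 (adjusted p 0.659). Pygm, a glycogen phosphorylase, differed by -0.72 (0.759) and Pdk2, a kinase that restrains pyruvate dehydrogenase, by -0.42 (0.799). Of 13 heme, iron and copper genes, 2 (15.4%) lay lower on all ADX than on all Sham arrays, against 1.29% of all and 2.12% of detected probe sets. These were Alas2 and Heph, a copper-dependent iron oxidase. Heph read 4.34, 4, 4.31 and 4.24 in ADX, 5.27, 4.95, 5.47 and 5.36 in pADX and 5.49, 5.16, 5.22 and 4.83 in Sham. The difference of -0.95 (adjusted p 0.336) is a lower bound on the size because 1 ADX array was at the floor.

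Of 15 corticosteroid receptor and stress axis genes measured, 2 (13.3%) lay higher on all ADX than on all Sham arrays, both receptors. Of all probe sets 1.52% did so, and of detected probe sets 2.37%. Nr3c1, the glucocorticoid receptor, stood at 8.53, 8.60, 8.77 and 8.63 in ADX, at 8.66, 8.63, 8.35 and 8.51 in pADX and at 8.51, 8.39, 8.43 and 8.06 in Sham. Its lowest ADX array lay just above the highest Sham array, and the difference was 0.28 (SE 0.10, adjusted p 0.845). Hsd11b1, the enzyme that regenerates active corticosterone in cells, differed by -0.22 (0.92). Crh, corticotropin-releasing hormone, stood at 5.38, 5.73, 5.09 and 5.0 in ADX, at 5.58, 4.99, 5.26 and 5.62 in pADX and at 5.30, 5.85, 5.32 and 4.89 in Sham. The groups overlapped fully and the 95% interval of the difference ran from -0.55 to 0.47. Its binding protein Crhbp differed by 0.06, with an interval from -0.43 to 0.54.

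Transmitter and peptide genes lay on both sides of 0. The 18 amygdala neuropeptides had a median of 0.02, with the most negative value at -0.39 for Vip, vasoactive intestinal peptide (adjusted p 0.759). The 22 peptide and monoamine receptors had a median of 0.00. Among them the serotonin receptor Htr2c was higher on all ADX arrays, at 10.45 to 10.60 in ADX and 10.10 to 10.43 in Sham, by 0.26 (0.877), and the serotonin receptor Htr2a was lower on all ADX arrays, at 6.40 to 6.54 in ADX and 6.64 to 6.95 in Sham, by a difference of -0.25 (0.926). Each is 4.55% of the 22. Of detected probe sets with 1 symbol, 2.37% were higher and 2.12% lower on all ADX arrays. Of 23 glutamate and GABA receptor subunits, with a median of 0.03, Grm3 was higher on all ADX arrays by 0.36 (0.659), and Gria1 and Gria3 of the AMPA receptor were lower on all ADX arrays at -0.23 and -0.17 (0.936 each). These are 4.35% of the 23 higher and 8.7% lower, beside the same 2.37% and 2.12% of detected probe sets. The 18 immediate early genes had a median of -0.08, and Nr4a3, an orphan nuclear receptor, stood at 8.33, 8.31, 8.5 and 8.39 in ADX, at 8.22, 8.13, 7.68 and 8.01 in pADX and at 7.95, 7.83, 8.07 and 7.94 in Sham. It was the only one of the 18 without overlap between ADX and Sham, a share of 5.56% beside 4.49% of detected probe sets, and differed by 0.44 (0.735). The clock genes (20 measured, median -0.01), the inflammatory genes (19, median 0.00) and the mineralocorticoid and sodium genes (11, median 0.04) held no more than 1 member without overlap each.

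**Figure D3:**
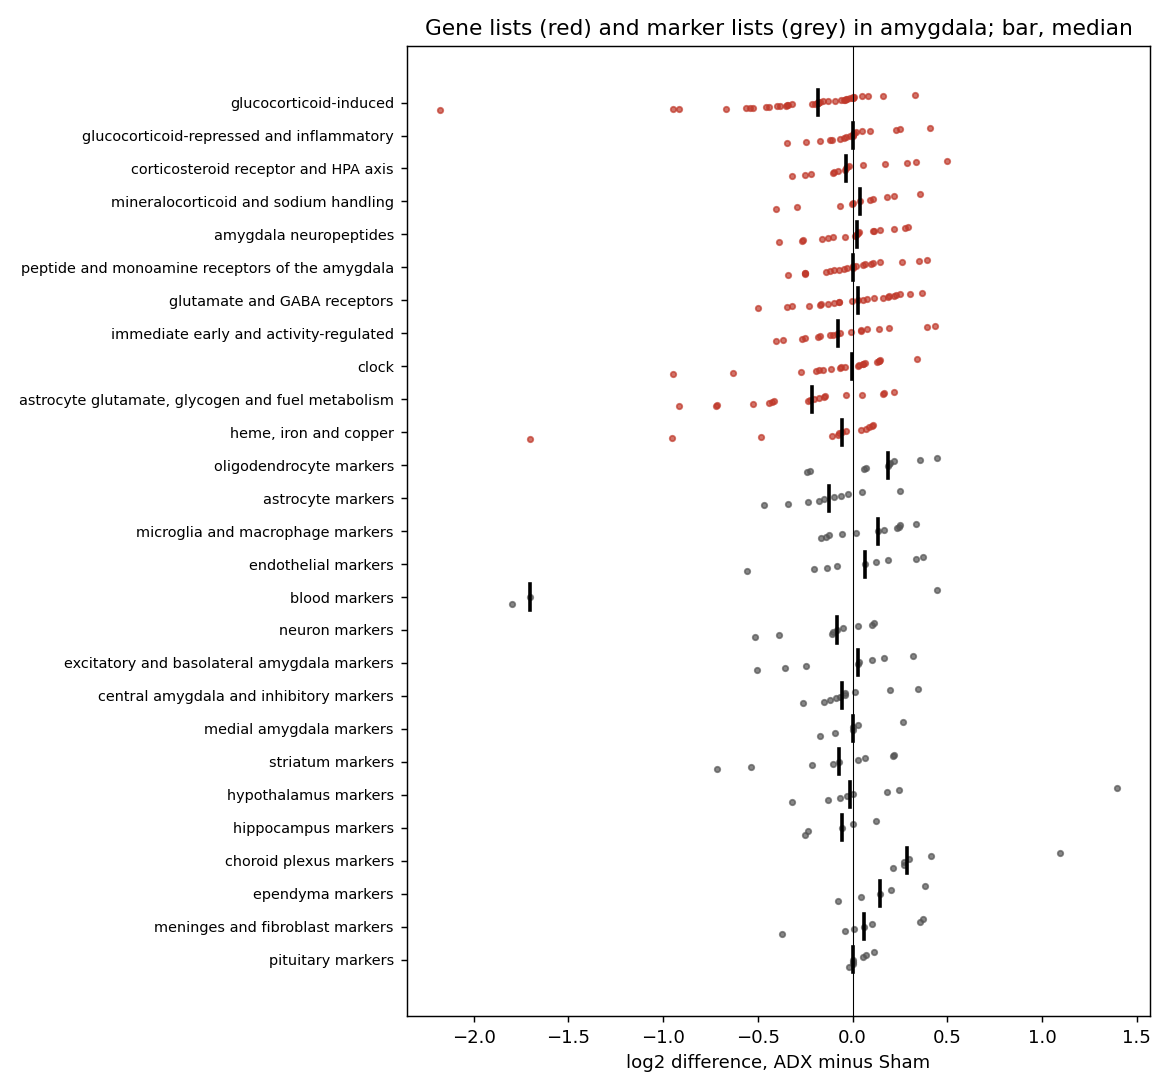
Log2 difference ADX minus Sham of every measured gene of 11 gene lists (red) and 16 marker lists (grey), 1 point per gene, with a bar at the list median. The glucocorticoid-induced list has its bar at -0.18, the astrocyte metabolism list at -0.21, and the blood markers at -1.70 with 3 genes.

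The pADX arrays share their Sham arrays with the comparison above. In pADX minus Sham no probe set passed in limma (percent called 0), with 2341 at an unadjusted p under 0.05 (7.54%) and a smallest adjusted p of 0.0999, which belonged to Cxcl12 at -0.59. That count was 7 without Sham PM replicate 1, 5 without Sham AM replicate 1, 3 without pADX PM replicate 1, pADX AM replicate 2 or pADX PM replicate 2, and 2 without pADX AM replicate 1. Htra1 differed by -0.16 in pADX, Sult1a1 by -0.33 and Paqr8 by -0.13, with adjusted p-values of 0.673, 0.794 and 0.766. In the direct test of ADX minus pADX 3 probe sets passed (0.00966%). These were Htra1 at -1.17 (SE 0.07, adjusted p 0.00288), Ebf1 at 0.30 and an unnamed probe set near the floor. Sult1a1 differed by -1.85 (0.0618) and Paqr8 by -0.58 (0.111). The count was 7 without pADX AM replicate 1, 5 without Sham PM replicate 1 or Sham PM replicate 2, and 1 without Sham AM replicate 1, Sham AM replicate 2 or ADX PM replicate 1.

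Time of day was examined because corticosterone has a daily rhythm. Within AM arrays 10 probe sets passed (0.0322%) and within PM arrays 10 (0.0322%), and Htra1 was the only detected one in each, at -1.42 in AM (adjusted p 0.015) and -1.25 in PM (0.0344). In the test of whether the ADX difference depended on time, 12 probe sets passed in limma (0.0387%). All 12 were near the floor, at it on 4 to 10 of the 12 arrays, and with the filter 0 passed in limma and 482 had an unadjusted p under 0.05. No named gene passed. Gpd1 differed by -0.40 in AM and -1.43 in PM, and this change of -1.03 (SE 0.23) had an adjusted p of 0.718. On its Sham arrays both PM values lay above both AM values, while ADX values at the 2 times overlapped. Sgk1 differed by -0.11 in AM and -1.01 in PM, where its Sham arrays read 9.22 and 8.35 and its ADX arrays 7.81 and 7.73. Fkbp5 differed by -0.29 in AM and -1.04 in PM. Ddit4, Klf9 and Tsc22d3 differed by 0.07, 0.03 and 0.03 in AM and by -0.50, -0.39 and -0.38 in PM. These 6 genes each had an adjusted p of 0.718 or more for the dependence on time, and each cell of treatment and time held 2 arrays. Sult1a1, at -2.47 in AM and -1.88 in PM, and Paqr8, at -0.72 in AM and -0.71 in PM, differed in the same direction at both times. So did Per1, at -0.64 in AM and -1.26 in PM, Angptl4, at -0.11 and -0.58, and Ndrg2, at -0.49 and -0.15. For Hbb the difference was -2.62 in AM and -0.97 in PM.

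**Figure D4:**
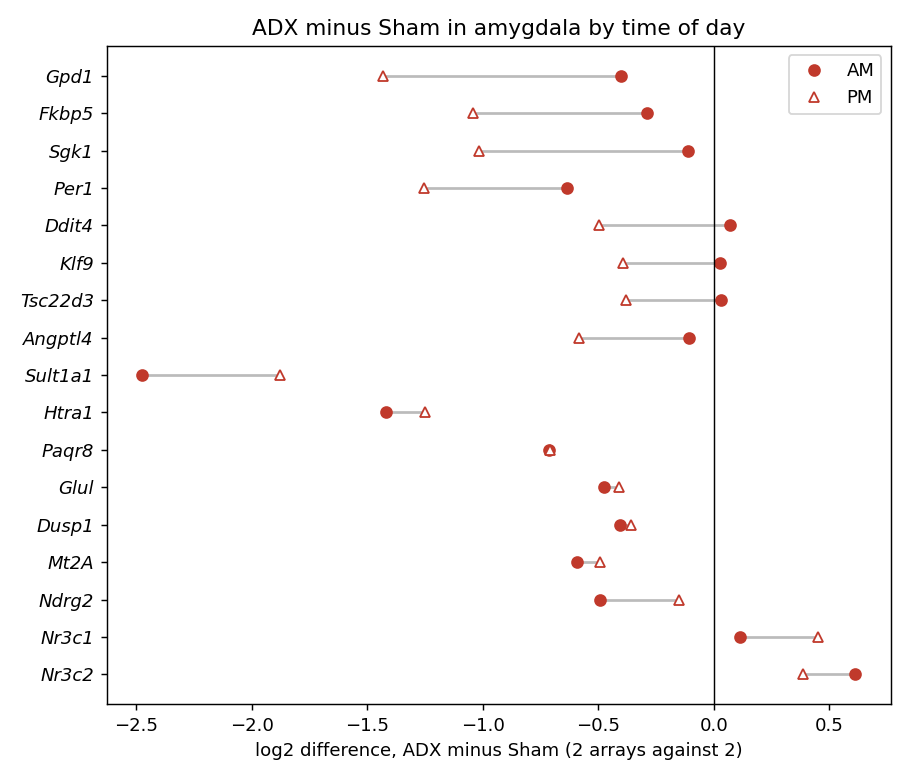
Log2 difference ADX minus Sham in amygdala at AM (filled circles) and PM (open triangles), 2 arrays against 2 for each point. Among the genes lower in ADX, Gpd1, Fkbp5, Sgk1, Per1, Ddit4, Klf9, Tsc22d3 and Angptl4 lie further left at PM, and Sult1a1 and Ndrg2 at AM. Htra1, Paqr8 and Glul have nearly the same value at both times.

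The ADX difference in amygdala was then set against its mean in septum, hypothalamus, dorsal raphe and locus coeruleus, the regions that like the amygdala have all 12 arrays. These regions were read from the codes in the titles. The same titles name frontal cortex as the source for septum, dorsal raphe and locus coeruleus, and left hippocampi for hypothalamus. The difference was taken within 12 units of treatment, time and replicate letter, which assumes that a letter matches arrays across regions, as the labels do not state. No probe set passed in limma (percent called 0), with 1941 at an unadjusted p under 0.05 (6.25%) and a smallest adjusted p of 0.112. Htra1 differed by -1.33 in amygdala and by -1.05 on average in the 4 other regions, Sult1a1 by -2.18 and -2.03, and Paqr8 by -0.71 and -0.63. The difference between amygdala and the others was -0.29 for Htra1 (SE 0.05, adjusted p 0.586), -0.15 for Sult1a1 (SE 0.22, 0.979) and -0.09 for Paqr8 (SE 0.07, 0.888). Gpd1 stood at -0.92 in amygdala and at -1.13 to -1.42 in the other 4. Genes named for their amygdala difference alone stood nearer 0 in the mean of these 4 regions in some cases, a comparison that their choice favours. Bbs7 stood at 0.48 in amygdala and -0.27 in that mean (adjusted p 0.112), Cpne7 at -0.62 and -0.01 (0.474), Glrx3 at 0.28 and -0.05 (0.474) and Sirpa at -0.31 and -0.02 (0.698). Nr3c2 stood at 0.50 in amygdala and between 0.09 and 0.29 in the other 4 (0.698). Hippocampus and frontal cortex, with 10 arrays each, were outside the test and gave other values. Hippocampus lacks only the pADX arrays at AM, whereas frontal cortex has fewer ADX and Sham arrays at AM than at PM. Frontal cortex values are differences of plain means, so they weigh PM more than the amygdala values do. Cpne7 stood at -0.99 in hippocampus and Nr3c2 at 0.62, both further from 0 than in amygdala. Fkbp5 stood at -0.67 in amygdala and -0.26 in the mean of the 4 regions tested (limma adjusted p 0.78). It stood at -1.22 in hippocampus and -1.01 in frontal cortex. In frontal cortex Sirpa stood at -0.27, Bbs7 at 0.23 and Glrx3 at 0.15, each with the sign of the amygdala. Without Sham PM replicate 1 of every region the count was 10, and without Sham AM replicate 1 it was 1. Without normalization between arrays it was 5233, with none of the deposited hypothalamus arrays and 2 of 12 dorsal raphe arrays at the common scale.

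**Figure D5:**
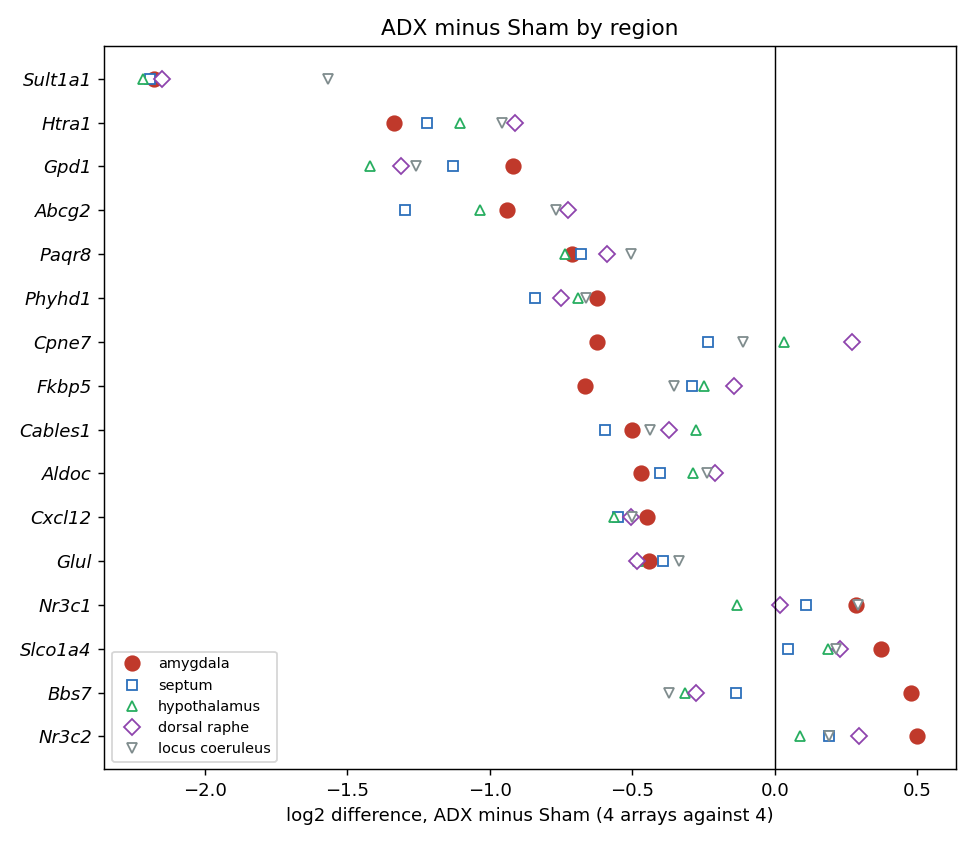
Log2 difference ADX minus Sham of 16 genes in amygdala (filled circles) and in septum, hypothalamus, dorsal raphe and locus coeruleus (open symbols), 4 arrays against 4 in each. Sult1a1, Htra1 and Paqr8 lie left of 0 in all 5 regions. For Htra1, Cpne7, Fkbp5, Aldoc, Slco1a4, Bbs7 and Nr3c2 the amygdala value lies outside the range of the 4 other regions drawn, further from 0. For Gpd1, Phyhd1 and Cxcl12 it lies outside that range and nearer 0. Hippocampus and frontal cortex are not drawn. Further from 0 than in amygdala were Cpne7 (-0.99), Fkbp5 (-1.22) and Nr3c2 (0.62) in hippocampus. In frontal cortex Fkbp5 (-1.01), Aldoc (-0.63) and Slco1a4 (0.46) were so. Htra1 and Bbs7 were further from 0 in neither.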

How the data were processed

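Total RNA of rat brain was measured on 82 one-colour arrays. The authors deposited 1 table of linear intensity values per probe set; the sources used here do not say how the values were computed or scaled. Intensities were quantile normalized over 82 arrays, set to a floor of 16 and taken as log2. Control probe sets (57) were left out, leaving 31042, of which 20826 carry 1 gene symbol in the platform annotation, 436 several and 9780 none. Linear models with terms for treatment and time were fitted to the 12 amygdala arrays and moderated with an intensity trend (limma 3.58.1, R 4.3.3). A probe set passed at a Benjamini-Hochberg adjusted p under 0.05. Titles with a b after the region code were replicate 2. Members and gene lists were chosen with earlier results of these data known. Named genes were the detected calls, filled to 12 per direction by smallest p among genes without overlap between ADX and Sham, and 22 genes given in advance, 21 of them matched; detected means a group mean 2 log2 units above the floor. List genes were read from their brightest probe set. Simulated data for ADX against Sham had 200 of 31042 probe sets changed. These were drawn only from probe sets with a mean more than 2 log2 units above the floor. Of the 200, 82.5% were recovered at a log2 change of 1 and 97.5% at 2, and 9.84% and 6.7% of the calls were false. The simulated noise was independent between probe sets, and recovery of probe sets near the floor was not tested. The adjusted p depends on how many probe sets change, and 200 were changed here beside 4 calls on the real arrays. The recovery therefore does not give the share of changes found in the real comparison. Alternatives covered normalization, floor, pseudocount, filter, moderation, time term, replicate block and each array left out. The number of arrays limits the precision.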

Additional observations from a re-analysis of the deposited data

Results flagged for a closer look

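Among 123 groups of 4 arrays (41 genes in 3 treatments), 9 held an array whose gap to the nearest other array was above Dixon's 95% critical value relative to the group's range. Chance flags about 1 in 20 groups. ADX PM replicate 2 was low for Fkbp5, at 6.0324 against 6.6407 to 6.7157 on the other ADX arrays, and for Klf9, at 8.7382 against 8.9312 to 8.9665. ADX PM replicate 1 read 8.3691 for Paqr8, against 8.2686 to 8.2801 on the other ADX arrays. ADX AM replicate 1 read 4.2068 for Mt1, with the others at the floor. pADX AM replicate 1 read 4.0715 for Mt1, with the others at the floor, and 7.6265 for Mt2A, against 8.1635 to 8.2245. pADX AM replicate 2 read 5.974 for Abcg2, against 6.6392 to 6.7144 on the other pADX arrays. Sham PM replicate 1 read 7.1635 for Erbin, against 7.0631 to 7.0746, and Sham PM replicate 2 read 7.1668 for Crhbp, against 6.6129 to 6.6837.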

How the results depend on the processing

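Over 24 alternatives Htra1 kept its sign and its call in 23, Sult1a1 kept its sign and its call in 12, and Paqr8 kept its sign and its call in 9. The 24 include 2 combinations chosen after seeing the data, given below, in both of which all 3 genes kept their call. ADX against Sham gave 4 calls, and 2 with a floor of 32, 10 with a pseudocount of 16, 14 with the filter on low probe sets, 0 on the 8 ADX and Sham arrays, and 1 to 16 with 1 array left out. The filter left 14073 of 31042 probe sets, and those removed include the 4457 at the floor on every array. The prior degrees of freedom that limma took from the spread of all probe sets were 0.73 without it and 5.28 with it. Among the 24, the combinations chosen after seeing the data were 8 arrays with the filter, with 16 calls, and the replicate block with the filter, with 11. pADX against Sham gave 0 to 7 calls with 1 array left out. ADX against pADX gave 3 calls, and 6 as deposited, 5 with the filter, 5 without a trend and 1 to 7 with 1 array left out. The dependence on time gave 12 calls, and 7 as deposited, 0 with the filter and 10 to 216 with 1 array left out, where a cell of 1 array is assumed to vary like the others. Amygdala against the other regions gave 0 calls, 5233 as deposited and 0 to 10 with 1 unit left out. With the replicate letter as a block, ADX against Sham gave 1 call, ADX against pADX 1 and the dependence on time 7. The letters were not taken to pair the samples, since the deviations of same-letter arrays correlated at -0.27 to 0.23 over 15 pairs, 3 of them over 0.1. Mt1, at -0.03, stood at 0.188 with the pseudocount and at -0.0853 to 0.0312 with 1 array left out. With 1 array left out Crh ranged from -0.1573 to 0.1014 and Crhbp from -0.0115 to 0.221, so none of these 3 has a settled sign. As deposited, 27 of 27 list medians moved by less than the spread between arrays, and with all probe sets of the members 26 of 27 did. The cause of these changes was not tested, and for the filter the smaller number of tests and the prior degrees of freedom were not separated. Signals near the floor limit what could be seen in low genes.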

Other observations

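Of genes outside the lists, 2 probe sets without a gene symbol passed with the filter on low probe sets, 1380306_at at -0.93 (limma adjusted p 0.00527) and 1383393_at at 1.57 (0.008). Over all probe sets their adjusted p-values were 0.169 and 0.334. Peptides of neighbouring hypothalamus differed widely within each treatment. Avp, vasopressin, stood at 7.33, 8.18, 6.14 and 7.78 in ADX, at 7.0, 5.70, 8.47 and 7.49 in pADX and at 10.07, 5.54, 8.99 and 6.10 in Sham. Oxt, oxytocin, stood at 6.25, 6.79, 5.23 and 6.80 in ADX and at 8.26, 4.82, 6.57 and 4.46 in Sham. Pmch, melanin-concentrating hormone, stood at 8.15, 9.76, 7.70 and 6.06 in ADX and at 9.28, 5.25, 6.84 and 4.71 in Sham. Sham AM replicate 1 was the highest of the Sham arrays for Avp, Oxt and Pmch and Sham PM replicate 2 the lowest for Oxt and Pmch. Ttr, transthyretin, the main secreted protein of the choroid plexus, stood at 12.86, 12.80, 12.28 and 11.94 in ADX, at 10.23, 11.62, 11.13 and 12.65 in pADX, and at 12.56, 12.75, 12.65 and 7.54 in Sham. The summed signal of 10 oligodendrocyte markers was 10340 to 15020 in ADX, 9837 to 11160 in pADX and 10550 to 12970 in Sham.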
